A study of Homo sapiens with 16 samples.

Results

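Integrin subunits were followed across 4 treatments of HEK293 cells, a human embryonic kidney line. The members were the single-gene probe sets of ITGA2, ITGA3, ITGA5, ITGA6, ITGAV, ITGB1, ITGB3, ITGB5, ITGB6 and ITGB8, 34 of the 49293 on the array, for 9 genes of the 18132 that have such a set. All cells had been transfected for 24 h with 500 ng per well of a plasmid for the mineralocorticoid receptor and were then treated for 4 h. The 4 groups received 100 nM DOC (a mineralocorticoid) plus 10 nM PMA (a phorbol ester and activator of protein kinase C), 10 nM PMA alone, 100 nM DOC alone, or vehicle. Each group held 4 arrays that the labels call biological replicates, and every group carried the receptor plasmid. Cells without it were not analysed here, so effects of DOC through the transfected receptor and through others cannot be told apart.

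Integrins are receptors that join the cell to its matrix. Each is a pair of one alpha and one beta subunit, and the pairing sets which ligand is bound: laminin for ITGA3 and ITGA6, collagen for ITGA2, fibronectin for ITGA5, and ligands with an arginine-glycine-aspartate motif, such as vitronectin and latent TGF-beta, for ITGAV. ITGB1 is the shared partner of many alpha subunits, while ITGB3, ITGB5, ITGB6 and ITGB8 pair with ITGAV. Inside the cell, talins and kindlins bind the beta tail and switch the receptor to its active form.

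Of the 10 symbols, 9 had a single-gene probe set. ITGB6 was measured only by 2 probe sets that also name another gene, so no value is given for it. Dim sets, those that reached the 40th percentile of the array's values on fewer than 4 of the 16 arrays, were dropped, leaving 19 of the 34 sets and 8 genes to test. All 7 sets of ITGB3 were left out, with array values of 1.99 to 4.03, below the array medians of 4.91 to 4.96. Also left out were 2 of 3 sets of ITGA3, 2 of 4 of ITGA5, 1 of 5 of ITGB1 and 3 of 4 of ITGB8. The brightest kept set by mean stood for the gene. All levels are log2 RMA values and all differences are on the log2 scale. Levels of different genes are not compared, because probe sets differ in brightness.

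On GRCh38.p14 the genes of the alpha subunits lie at chr5:52989352-53094779 for ITGA2, chr17:50056110-50090481 for ITGA3, chr12:54395261-54419266 for ITGA5, chr2:172427336-172506459 for ITGA6 and chr2:186590056-186680901 for ITGAV. Those of the beta subunits lie at chr10:32900318-32958230 for ITGB1, chr17:47253827-47313743 for ITGB3, chr3:124761948-124901418 for ITGB5, chr2:160099671-160200272 for ITGB6 and chr7:20329766-20415754 for ITGB8. All are protein-coding in RefSeq. The regions at the first annotated start of the 4 subunits that passed the test with PMA are shown, because the series title concerns AP-1, the transcription factor that binds the sequence searched for. They are RefSeq sequences on GRCh38.p14, read 5′ to 3′ on the gene's strand, at chr12:54419266-54419516 for ITGA5 (minus strand), chr2:172427086-172427335 for ITGA6 (plus strand), chr2:186589806-186590055 for ITGAV (plus strand) and chr10:32958231-32958480 for ITGB1 (minus strand). They end at the base before the start, except that of ITGA5, whose last base, also the last of its capitals, is the first transcribed one. Capitals mark the AP-1 letters TGANTCA, searched on both strands.
ITGA5: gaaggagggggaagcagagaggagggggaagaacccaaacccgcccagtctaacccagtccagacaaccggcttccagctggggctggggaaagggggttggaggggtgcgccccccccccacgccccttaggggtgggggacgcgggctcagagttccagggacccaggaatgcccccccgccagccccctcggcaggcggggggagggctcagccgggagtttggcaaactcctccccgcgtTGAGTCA
ITGA6: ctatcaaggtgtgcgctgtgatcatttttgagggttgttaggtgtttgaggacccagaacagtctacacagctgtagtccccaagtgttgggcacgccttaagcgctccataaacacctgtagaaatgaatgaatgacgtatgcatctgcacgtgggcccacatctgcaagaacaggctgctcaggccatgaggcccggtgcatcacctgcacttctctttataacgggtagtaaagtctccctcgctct
ITGAV: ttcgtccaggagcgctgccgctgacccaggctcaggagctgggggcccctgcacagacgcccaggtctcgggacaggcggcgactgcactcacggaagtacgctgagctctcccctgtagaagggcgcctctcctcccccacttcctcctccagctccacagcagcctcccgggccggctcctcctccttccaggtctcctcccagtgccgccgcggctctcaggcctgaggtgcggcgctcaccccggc
ITGB1: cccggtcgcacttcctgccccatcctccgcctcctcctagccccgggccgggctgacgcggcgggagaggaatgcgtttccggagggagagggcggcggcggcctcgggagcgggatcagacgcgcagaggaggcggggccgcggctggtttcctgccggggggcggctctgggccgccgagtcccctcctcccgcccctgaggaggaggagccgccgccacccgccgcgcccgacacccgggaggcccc

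The search covered 300 bases, 250 before and 50 after each start, in 13 windows of 8 of the 10 symbols. TGANTCA was in 1 of the 13 windows, that of ITGA5, where its first base stood at position -6 from the transcript start. The same letters were in 7.71% of 35114 promoter windows of this length. GGGCGG, the letters bound by Sp1, were in 9 of the 13 windows and in 45% of all. The 2 windows of ITGA6 overlap and share a GGGCGG site that is counted in both, and ITGB5 has 3 windows. The 13 windows are therefore not independent. TGTTCT, the half-site of the hormone response element that steroid receptors bind, was in 3 of the 13 and in 14.8% of all. These matches describe the letters only.

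PMA raised the laminin receptor subunit ITGA6 and the vitronectin and latent TGF-beta receptor subunit ITGAV, with smaller differences for their partner ITGB1 and for the fibronectin receptor subunit ITGA5. With PMA alone against vehicle, 4 of the 8 members passed the test as higher (limma, Benjamini-Hochberg adjusted p under 0.05 over 12495 genes) and 0 as lower. Across all genes tested, 17.7% passed as higher and 29.3% as lower. The median difference was 0.25 over the 8 members and -0.04 over all genes. RMA gives every array a common distribution, which hides any shift shared by all transcripts.

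ITGA6 (probe set 11739861_s_at) measured 10.18, 10.41, 9.84 and 10.09 in the DOC plus PMA arrays, 10.35, 10.50, 10.08 and 10.05 in the PMA arrays, 9.83, 9.62, 9.46 and 9.54 in the DOC arrays and 9.54, 9.36, 9.53 and 9.53 in the vehicle arrays. Every array with PMA lay above every array without it. It was 0.75 ± 0.12 (SE) higher with PMA than with vehicle, a fold of 1.69 (limma adjusted p = 3.70e-05). DOC plus PMA was 0.64 ± 0.12 above vehicle (limma adjusted p = 0.000222).

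ITGAV (probe set 11757515_s_at) measured 10.31, 10.40, 9.82 and 10.15 in the DOC plus PMA arrays, 10.24, 10.49, 9.85 and 9.92 in the PMA arrays, 9.71, 9.61, 9.22 and 9.45 in the DOC arrays and 9.48, 9.37, 9.39 and 9.51 in the vehicle arrays. The groups with PMA did not overlap the groups without it. The difference was 0.69 ± 0.14 for PMA over vehicle, a fold of 1.61 (limma adjusted p = 0.000569), and 0.73 ± 0.14 for DOC plus PMA over vehicle (limma adjusted p = 0.000335).

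ITGB1 (probe set 11758276_s_at), which pairs with both of these alpha subunits, measured 11.90, 12.11, 11.75 and 11.91 in the DOC plus PMA arrays, 11.97, 12.26, 11.84 and 11.81 in the PMA arrays, 12.04, 11.84, 11.73 and 11.60 in the DOC arrays and 11.69, 11.73, 11.71 and 11.59 in the vehicle arrays. The PMA arrays lay above the vehicle arrays, while the DOC arrays overlapped both groups with PMA. The PMA difference of 0.29 ± 0.11 passed the test (limma adjusted p = 0.0307). It did not pass without PMA replicate 2 (0.19, limma adjusted p = 0.116), nor without PMA replicate 1, vehicle replicate 1 or vehicle replicate 4 (limma adjusted p of 0.0573, 0.0523 and 0.0783). DOC plus PMA was 0.24 ± 0.11 above vehicle and did not pass (limma adjusted p = 0.0764), though it did in 6 of 28 alternative settings. Among them were the fits without PMA replicate 2 and without DOC plus PMA replicate 3 (limma adjusted p of 0.0386 and 0.0431). PMA replicate 2 is in neither group of that comparison. Leaving it out changed the spread that limma estimates over all groups, not the difference.

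ITGA5 (probe set 11715703_s_at) measured 4.92, 5.00, 4.51 and 4.86 in the DOC plus PMA arrays, 4.60, 5.01, 4.79 and 4.72 in the PMA arrays, 4.59, 4.52, 4.52 and 4.64 in the DOC arrays and 4.48, 4.52, 4.71 and 4.36 in the vehicle arrays. The groups overlapped, and all vehicle values lay below the array medians. The PMA difference of 0.26 ± 0.10 was just inside the threshold (limma adjusted p = 0.0496) and lost it in 19 of 27 alternative settings, without PMA replicate 2 among them (0.18, limma adjusted p = 0.161). DOC plus PMA was 0.30 ± 0.10 above vehicle (limma adjusted p = 0.0255), a call lost without any 1 of DOC plus PMA replicates 1, 2 and 4 and vehicle replicates 1 and 4 (limma adjusted p of 0.0555 to 0.0865). With DOC plus PMA against vehicle 3 of the 8 members were called higher (ITGA5, ITGA6 and ITGAV) and 0 lower, against 17.5% of all genes higher and 26.3% lower. These 2 comparisons share the vehicle arrays.

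**Figure D1:**
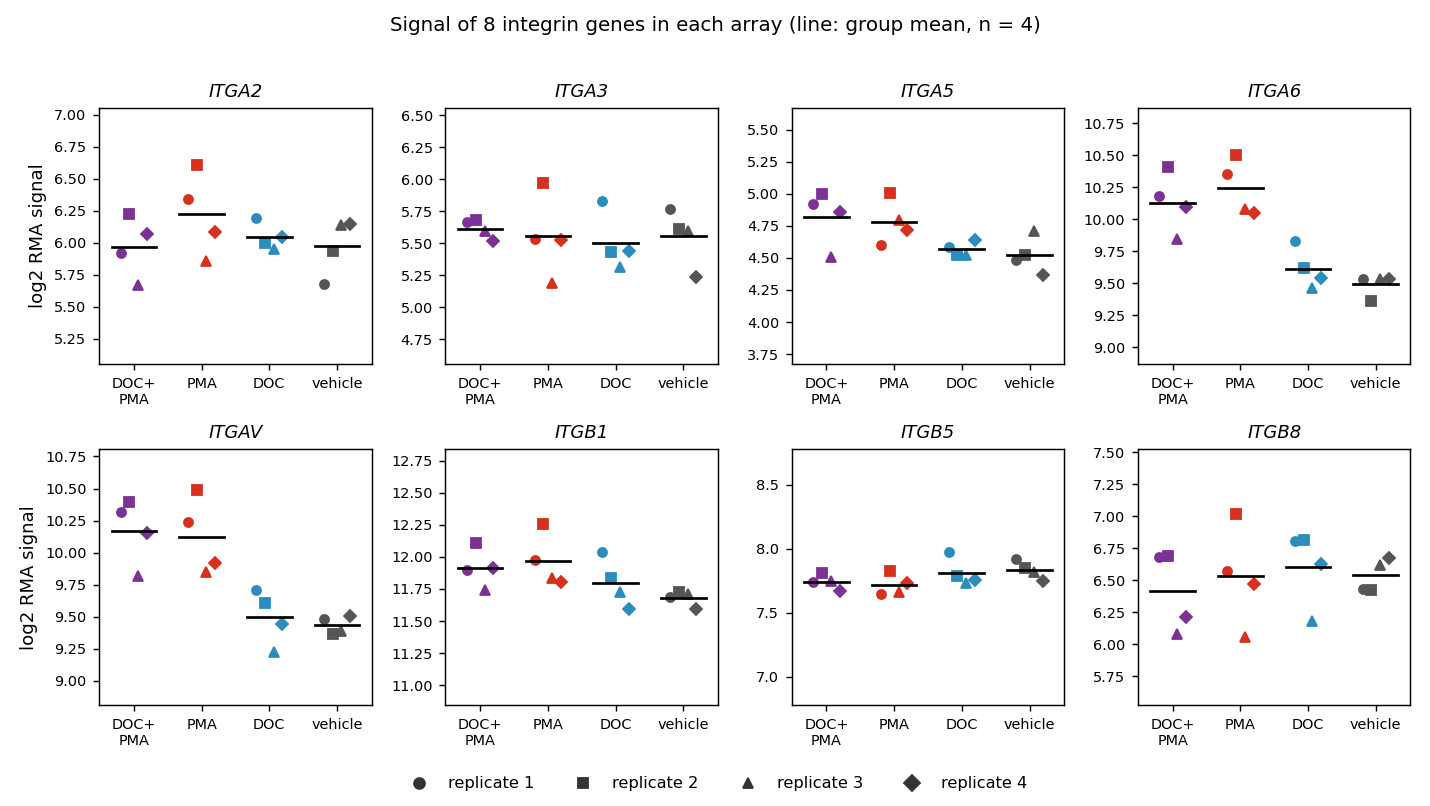
Log2 RMA level of the representing probe set of each integrin gene tested, 1 point per array, with the 4 treatment groups along the horizontal axis and a line at each group mean. The arrays with PMA sit above those without it for ITGA6 and ITGAV, and the groups overlap for ITGA2, ITGA3, ITGB5 and ITGB8.

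The other members did not pass. ITGA2, the collagen receptor subunit, measured 5.92, 6.22, 5.67 and 6.07 in the DOC plus PMA arrays, 6.34, 6.61, 5.86 and 6.08 in the PMA arrays, a mean of 6.05 ± 0.11 (SD, n = 4) in the DOC arrays and 5.68, 5.94, 6.14 and 6.15 in the vehicle arrays. All 4 groups overlapped, and the difference of PMA over vehicle was 0.25 ± 0.15 (limma adjusted p = 0.173). ITGA2 did pass at 0.34 when arrays were shifted to a common median (limma adjusted p = 0.0400) and at 0.37 without PMA replicate 3 (limma adjusted p = 0.0416). ITGA3, a laminin receptor subunit, measured 5.53, 5.97, 5.19 and 5.53 in the PMA arrays and 5.77, 5.61, 5.60 and 5.24 in the vehicle arrays, again overlapping. Its difference was 0.00 ± 0.14 (limma adjusted p = 0.991).

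Of the beta partners of ITGAV, ITGB5, a subunit of a vitronectin receptor, measured 7.64, 7.83, 7.66 and 7.73 in the PMA arrays and 7.92, 7.85, 7.82 and 7.75 in the vehicle arrays. The highest PMA array overlapped the vehicle range, and the difference was -0.12 ± 0.07 (limma adjusted p = 0.168). ITGB8, a subunit of a receptor that activates latent TGF-beta, measured 6.57, 7.02, 6.06 and 6.47 in the PMA arrays and 6.43, 6.43, 6.62 and 6.67 in the vehicle arrays. Its PMA values lay on both sides of the vehicle values, and the difference was -0.01 ± 0.18 (limma adjusted p = 0.973). With no filter on dim probe sets, ITGB3 differed by 0.12 ± 0.17 for PMA over vehicle (limma adjusted p = 0.633).

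DOC plus PMA against DOC gives the PMA difference in arrays other than those of PMA against vehicle, though not independently. Same-numbered PMA and DOC plus PMA arrays deviated together (correlations of 0.157 to 0.549). In addition, limma estimated a single spread shared by all 4 groups. ITGAV was 0.67 ± 0.14 higher (limma adjusted p = 0.000739) and ITGA6 0.52 ± 0.12 higher (limma adjusted p = 0.00149), and in both all 4 DOC plus PMA arrays lay above all 4 DOC arrays. These were 2 of the 8 members, against 15.7% of all genes called higher. Groups lay fully apart in this direction for 2 members and 14.2% of genes, and for PMA over vehicle for 3 members and 16.2% of genes. ITGA5 (0.26 ± 0.10, limma adjusted p = 0.0571) and ITGB1 (0.12 ± 0.11, limma adjusted p = 0.412) did not pass. ITGA5 passed in 7 of 27 alternative settings. Among them were the fits without DOC plus PMA replicate 3 (0.36, limma adjusted p = 0.00535) and without PMA replicate 2 (0.26, limma adjusted p = 0.0378). PMA replicate 2 is in neither group compared here, so leaving it out changed the shared spread and not the difference.

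**Figure D2:**
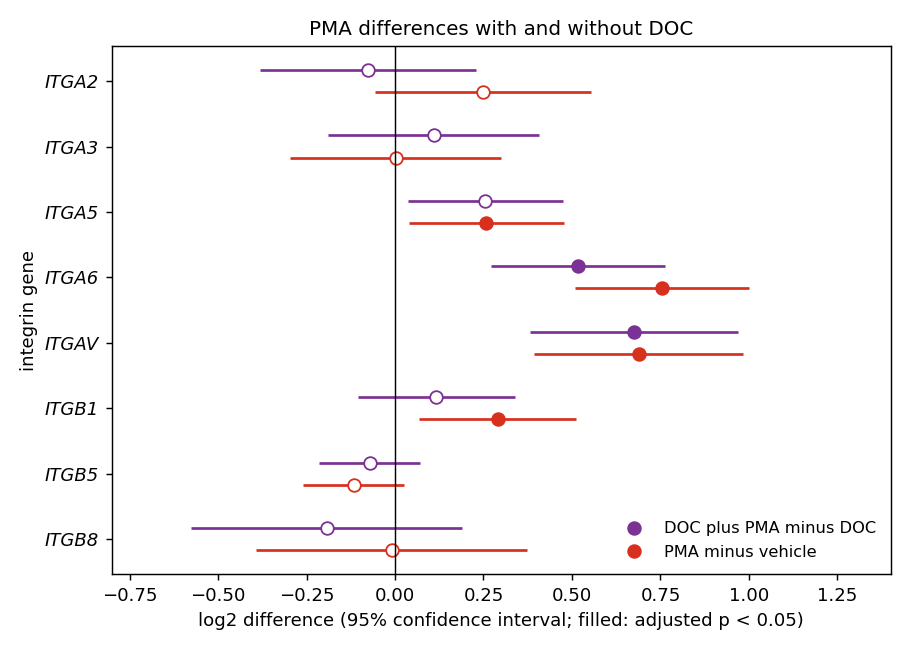
Log2 difference made by PMA for each integrin gene with its 95% confidence interval, with DOC present (DOC plus PMA minus DOC) and without it (PMA minus vehicle); filled points passed the limma test. ITGA6 and ITGAV passed in both, while ITGB1 and ITGA5 passed in PMA minus vehicle and not in DOC plus PMA minus DOC; the interaction test called neither.

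DOC gave no call in any member. For DOC against vehicle the differences were between -0.05 and 0.12, with 95% intervals within -0.35 to 0.45, and 0 of 8 passed (0.12% of all genes did). For DOC plus PMA against PMA they were between -0.25 (ITGA2) and 0.06, with intervals within -0.56 to 0.36, and 0 of 8 passed (0.384% of genes). The DOC effect averaged over both PMA levels was between -0.09 and 0.05, with intervals within -0.31 to 0.26 (0 of 8, against 0.432% of genes). The interaction, which asks whether the PMA difference changes with DOC, was between -0.32 (ITGA2) and 0.11 (0 of 8, against 0.088% of genes). Its 95% intervals lay within -0.76 to 0.53, and the widest was wider than any in the other comparisons of DOC. In each of these 4 comparisons limma gave an unadjusted p under 0.05 in 0 of the 8 members by the sets that stand for them. Of all 12495 genes, 386, 544, 574 and 370 had one, in the order above. The cells did respond to both agents: with PMA over vehicle FOS, an AP-1 subunit, was 5.65 ± 0.11 higher (limma adjusted p = 5.00e-17), and with DOC over vehicle SGK1, a kinase induced by corticosteroids, was 0.93 ± 0.08 higher (limma adjusted p = 5.61e-06).

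**Figure D3:**
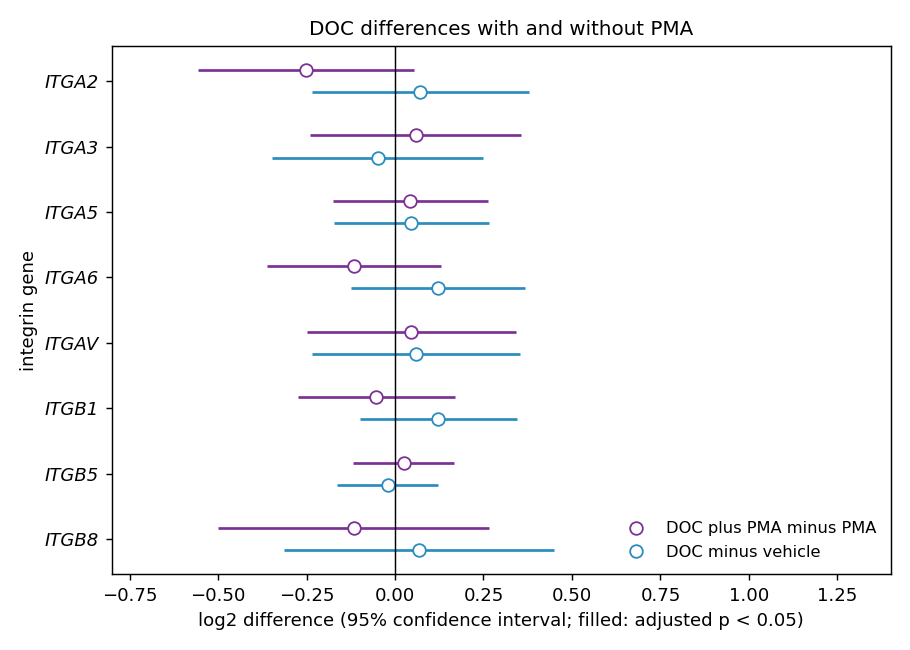
Log2 difference made by DOC for each integrin gene with its 95% confidence interval, with PMA present (DOC plus PMA minus PMA) and without it (DOC minus vehicle). No point is filled, since 0 of 8 genes passed in either, and every interval spans 0.

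The separate probe sets of a gene were also fitted on their own, among 28226 sets. With PMA over vehicle 10 of the 19 kept member sets were higher and 0 lower, where 16.5% of all sets were higher. All 5 ITGAV sets were higher, by 0.69 to 1.04, and all 3 ITGA6 sets, by 0.58 to 0.83. The ITGAV set at 1.04, 11716299_a_at, measured 3.59 to 4.03 in the vehicle arrays and 3.79 to 4.02 in the DOC arrays. On every array without PMA it lay below the level used to drop dim sets. It was kept only through its arrays with PMA, so its count as higher is not independent of that filter. For ITGB1 2 of 4 sets passed, in a range of 0.13 to 0.41, and for ITGA5 0 of 2, with a lowest limma adjusted p of 0.0629. With DOC plus PMA over DOC the ITGAV sets were 0.67 to 1.15 higher, again 5 of 5, and the ITGA6 sets 0.52 to 0.70 higher, 3 of 3, where 15.6% of all sets were higher. There 1 of 2 ITGA5 sets passed (11715704_x_at, 0.32 ± 0.11, limma adjusted p = 0.0276), though not the one that stands for the gene, and 0 of 4 ITGB1 sets. For DOC plus PMA over vehicle 5 of 5 ITGAV sets, 2 of 3 ITGA6 sets, 2 of 2 ITGA5 sets and 1 of 4 ITGB1 sets were higher. In the fit by gene 17.5% of all genes were. The share over all sets was not computed for this comparison, so these set counts have no like background. The ITGA6 set that did not pass was 11736029_a_at (0.41 ± 0.20, limma adjusted p = 0.123). The ITGB1 set that passed was 11737219_a_at (0.37 ± 0.13, limma adjusted p = 0.0328), not the one that stands for the gene. Sets of one gene share their transcripts and are not independent measurements.

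In the comparisons that measure DOC, 0 of the 19 sets passed, where 0.0744% of all sets did for DOC over vehicle, 0.216% for DOC plus PMA over PMA, 0.262% for the DOC main effect and 0.0248% for the interaction. In each, 1 of the 19 had an unadjusted p under 0.05 by limma. Of all sets, 2.72%, 3.74%, 3.85% and 2.58% did, in the same order, so 1 of 19 is near the background. ITGAV set 11716301_a_at was at -0.35 for DOC over vehicle (limma unadjusted p = 0.00451), -0.18 for the DOC main effect (0.0278) and 0.33 for the interaction (0.0403), none past the adjusted threshold. ITGA2 set 11743618_at was at -0.26 for DOC plus PMA over PMA (limma unadjusted p = 0.0407, also not past the adjusted threshold).

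**Figure D4:**
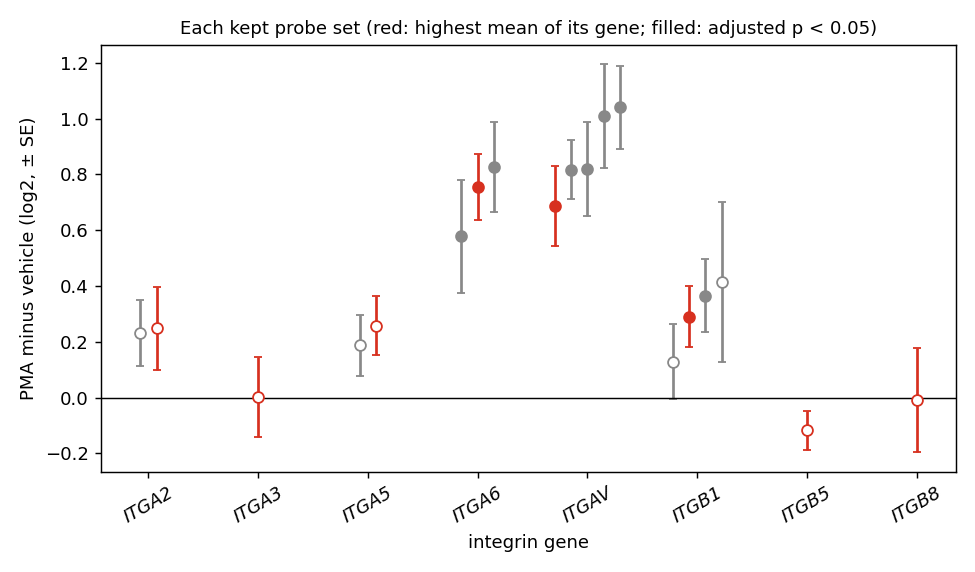
PMA minus vehicle (log2, vertical axis, with SE bars) of every kept probe set, by integrin gene; red marks the set that stands for the gene and filled points passed the limma test. The 5 ITGAV sets and the 3 ITGA6 sets all passed, while those of ITGB1 spread from 0.13 to 0.41.

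The arrays DOC plus PMA replicate 2, PMA replicate 2 and DOC replicate 1 strayed from their group means together, with pairwise correlations of 0.425 to 0.554 over all genes tested. PMA replicate 2 was the highest of its group in 8 of the 8 representing sets, DOC plus PMA replicate 2 in 8 of 8 and DOC replicate 1 in 6 of 8. In the other 4 ITGAV sets PMA replicate 2 was the lowest of its group in 3. Without these 3 arrays, a choice made after seeing the data, the PMA difference was 0.67 for ITGA6 (limma adjusted p = 2.98e-05), 0.57 for ITGAV (limma adjusted p = 0.00136) and 0.19 for ITGB1 (limma adjusted p = 0.0354). ITGA5 then did not pass (0.18, limma adjusted p = 0.148), and ITGB5 passed as lower (-0.15, limma adjusted p = 0.0316), as it did with all arrays under array weights (-0.14, limma adjusted p = 0.0376). Array quality was not tested as a part of these values.

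The 3 genes nearest to each of the 3 members with the widest range, by root mean square (RMS) difference over the 3 differences from vehicle, were found among 12494 genes. For ITGA6 they were KLF12 (RMS 0.0327), JAG1 (0.0403) and ITPRID2 (0.0441), with 117 genes within 0.1. For ITGAV they were TMEM64 (0.0144), MAP1S (0.0192) and DDX3X (0.0206), with 148 genes within 0.1. For ITGA5 they were ELOA (0.00885), ZNF155 (0.00956) and TXLNA (0.00958), with 1304 within 0.1. The 3 differences share the vehicle arrays.

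Partners of integrins moved in both directions with PMA. In all, 109 of 146 listed genes in 6 lists were tested, of which 30 (27.5%) were higher and 16 (14.7%) lower with PMA over vehicle, where 17.7% of all genes tested were higher and 29.3% lower. Among the matrix ligands 10 of 22 tested (45.5%) were higher and 1 (4.55%) lower, with a median of 0.23. CCN2 (3.72 ± 0.20), CCN1 (2.82 ± 0.09) and THBS1 (2.51 ± 0.19), secreted proteins that bind integrins, led, and NPNT, a ligand in basement membrane, was lower by -0.34 ± 0.10. In the vehicle arrays THBS1 averaged 4.09 and LAMB3, another ligand called higher, 4.11. The level used to drop dim sets was 4.05 to 4.12 over the arrays, so both counts may depend on that filter. Of the TGF-beta group 2 of 8 were higher, TGFB1 (1.20 ± 0.12), a latent growth factor that ITGAV integrins activate, and its receptor TGFBR2 (0.75 ± 0.07), and 2 were lower, LTBP1 (-0.30), which tethers it to the matrix, and the receptor TGFBR1 (-0.22).

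Of the regulators of integrin activity 4 of 17 (23.5%) were higher and 4 (23.5%) lower, near the 17.7% and 29.3% of all genes. The kindlin FERMT2 was 0.45 ± 0.09 higher and the kindlin FERMT1 lower (-0.85 ± 0.11). FBLIM1, a filamin-binding adaptor (0.87), and RAP1A, a small GTPase that promotes activation (0.43), were higher, and DOK1 (-0.54) and KANK2 (-0.52) lower. Of the focal adhesion adaptors and kinases 9 of 32 (28.1%) were higher and 2 (6.25%) lower, with VASP (2.06 ± 0.12), an actin regulator, ZYX (0.99 ± 0.12) and VCL (0.78 ± 0.07) higher and GIT2 (-0.71) and CRKL (-0.26) lower. Of the membrane partners and trafficking genes 5 of 21 (23.8%) were higher and 6 (28.6%) lower, near the shares over all genes. The proteoglycan SDC4 (2.76 ± 0.08), the hyaluronan receptor CD44 (2.01 ± 0.18) and the urokinase receptor PLAUR (1.86 ± 0.11) were higher, while SDC1 (-1.16 ± 0.09), GGA3 (-0.65) and SNX17 (-0.52) were lower. Of the other integrin subunits, 9 of 16 were tested and 0 were higher, and ITGAE was lower (-0.31).

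With DOC plus PMA over DOC the counts were 6 higher and 1 lower of the matrix ligands, 8 and 1 of the adaptors, 4 and 5 of the membrane partners, 2 and 1 of the TGF-beta group and 3 and 4 of the regulators. Their numbers tested were 22, 32, 21, 8 and 17, and of all genes 15.7% were higher and 26.9% lower in this comparison. ITGA1, another collagen receptor subunit, was 0.30 ± 0.08 higher there (limma adjusted p = 0.00433), with mean levels of 4.49 in the DOC plus PMA arrays, 4.41 in the PMA arrays, 4.19 in the DOC arrays and 4.47 in the vehicle arrays. The DOC group was thus the low one, and for PMA over vehicle ITGA1 did not pass (-0.07 ± 0.08, limma adjusted p = 0.498). In the 4 comparisons that measure DOC, 0 of the 109 partner genes passed, where 0.088% to 0.432% of all genes did.

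**Figure D5:**
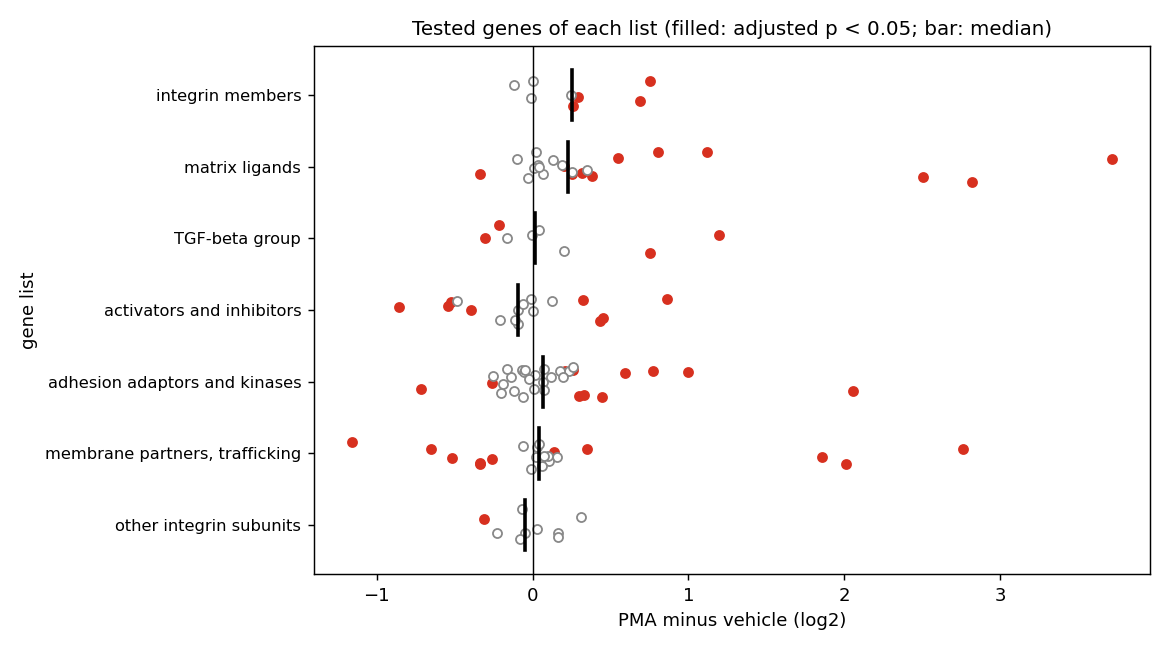
PMA minus vehicle (log2, horizontal axis) of each tested gene of the integrin members and the 6 partner lists, 1 row per list; filled points passed the limma test and the bar is the median. The points run between SDC1 at -1.16 and CCN2 at 3.72.

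In bulk RNA, fewer cells of a type and less RNA per cell cannot be told apart. Of 9 markers of HEK293 cells 7 lay above every array median, all but PAX2 and EYA1. Of markers of other cells, those above every median were 1 of 8 for leukocytes (LCP1), 1 of 7 for endothelium (EGFL7), 0 of 6 for fibroblasts and 1 of 5 for platelets (GP9), while 5, 5, 6 and 4 lay below every median. The HEK293 list had a summed level (log2) of 13.73 to 13.97 in the PMA arrays and 13.50 to 13.72 in the vehicle arrays, and 5 of its 9 markers passed, with NEFM (2.51), KRT8 (0.79) and KRT18 (0.77) higher with PMA and EYA1 (-0.85) and NEFL (-0.45) lower. The leukocyte sum was 9.37 to 9.56 in the PMA arrays and 9.18 to 9.39 in the vehicle arrays. LCP1 did not pass (0.16, limma adjusted p = 0.0794), and CD68 (0.43) and CORO1A (0.40) were higher. The endothelial sum was 7.27 to 7.35 in the PMA arrays and 7.14 to 7.30 in the vehicle arrays. Of its 4 markers that passed, TIE1 (0.47), PECAM1 (0.30) and ESAM (0.23) were higher and EGFL7 lower (-0.19). Dim markers were not tested: CDH5 and KDR of the endothelial list, and PTPRC, CD53, LAPTM5, ITGB2 and ITGAL of the leukocyte list. Also untested were COL3A1, DCN and LUM of the fibroblast list and GP1BA and PPBP of the platelet list. No tested fibroblast or platelet marker passed with PMA over vehicle. Beside these marker counts, 17.7% of all genes tested were higher with PMA over vehicle and 29.3% lower. The part of the markers in the integrin differences was not tested.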

How the data were processed

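The deposited values were log2 RMA signals that the authors made from PrimeView arrays (3′ IVT labelling of 100 ng total RNA, per the labels' protocols) with RMA. The software, per the submitters' processing notes, was Affymetrix Expression Console. Its version and a genome build are not given here. Arrays have no read depth, and their number limits the precision.

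Gene names came from the platform annotation, which gave 1 gene to 44988 sets, several to 1832 and none to 2473. Group means over the 16 arrays were fitted with lmFit and eBayes in limma 3.58.1 under R 4.3.3, two-sided, and p-values were adjusted by Benjamini-Hochberg over 12495 genes or 28226 probe sets. The fit was also run on simulated data with independent arrays and 200 changed genes. In the real data 5869 genes were called with PMA over vehicle and some arrays deviated together, so that run does not test these calls. Alternatives covered scaling, filter, probe set choice, array weights, variance model, replicate block and leaving out arrays.

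Same-numbered arrays of PMA and DOC plus PMA deviated together (correlations of 0.157 to 0.549 in 4 of 4 pairs). These numbers were treated as pairs on that ground, and blocking on them called 0 members for DOC plus PMA against PMA. No other groups met this rule. The rule did not set differently numbered arrays beside these pairs, so it cannot show that a shared number marks a pair. Among the 3 arrays that strayed together, where the DOC array had another number, correlations were 0.425 to 0.554. The members, lists, tests and alternatives were chosen with earlier results of these data known. The text names all members, up to 3 list genes with the largest rise and fall per list among those that passed, the 3 genes most like each of 3 members, FOS and SGK1.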

Additional observations from a re-analysis of the deposited data

Results flagged for a closer look

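Of 76 groups of 4 arrays checked (19 kept probe sets in 4 groups), 5 held an array whose gap to the nearest other was a large share of the group's range by Dixon's test. Chance gives about 1 in 20. ITGA6 set 11739861_s_at was low in vehicle replicate 2 (9.36, others 9.53 to 9.54, share 0.978). ITGAV set 11716299_a_at was high in PMA replicate 1 (5.29, others 4.76 to 4.84, share 0.855) and low in vehicle replicate 3 (3.59, others 3.96 to 4.03, share 0.851). ITGAV set 11716301_a_at was low in vehicle replicate 2 (4.76, others 5.06 to 5.09, share 0.899). ITGB1 set 11737219_a_at was high in PMA replicate 2 (9.54, others 9.06 to 9.11, share 0.896).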

How the results depend on the processing

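For PMA over vehicle, 4 members were called, with 2 to 5 over 28 alternatives in either direction. Array weights called 3, of which 2 were higher and 1, ITGB5, lower (-0.14, limma adjusted p = 0.0376). The count was 2 without vehicle replicate 1, vehicle replicate 4 or PMA replicate 2, and leaving out 1 array gave 2 to 4. ITGA6 (0.66 to 0.84) and ITGAV (0.57 to 0.88) passed in all 28. The ITGB1 call was lost in 6 of 28 and the ITGA5 call in 19 of 27, the cause of which was not tested. No called value changed sign. The 0 calls for DOC held in every alternative run.

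Scaling moved the split of calls: 37.6% of genes called with PMA were higher as deposited, 55.4% after a shift to a common median and 46.5% after cyclic loess on the whole table, with 4, 5 and 3 members called. The planned cyclic loess was worded for the deposited values and so was run on the whole table. A version on the tested genes alone had been run first, and is kept as an alternative added after both were seen: it gave 50.2% and 5 members. ITGA2 was called in that version (0.36, limma adjusted p = 0.0343) and ITGB1 was not called in the planned one (0.28, limma adjusted p = 0.0518).

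With the replicate number as a block over all 16 arrays, PMA over vehicle called 3 members (ITGA5 had limma adjusted p = 0.0556), and ITGB1 passed for DOC plus PMA over vehicle (limma adjusted p = 0.0303). The 60th percentile filter left ITGA3 and ITGA5 untested. Dim sets, among them all those of ITGB3, limit what these arrays show.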
